A study of Homo sapiens with 12 samples.

Results

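The genes described here are 8 immune checkpoint ligands, taken by symbol from the normalized-count tables of the PMA and the ConA experiment in HT1080 cells: CD274, PDCD1LG2, CD276, CD47, PVR, NECTIN2, NT5E and LGALS9. All 8 were listed in both tables, out of 16633 genes listed in either. HT1080 is an established human fibrosarcoma line, wild type (wt) in every library here. Cells were seeded at 1000000 per dish in biotin-depleted medium with 10% serum and, after 3 days, were moved to biotin-depleted medium with 1% serum. In the PMA experiment, 3 libraries came from cells exposed for 24 h to PMA (phorbol 12-myristate 13-acetate, an activator of protein kinase C) at 40 nM, and 3 from untreated controls numbered 1 to 3. In the ConA experiment, 3 libraries came from cells exposed for 24 h to the plant lectin Concanavalin A (ConA) at 40 µg/mL, and 3 from its own controls, numbered 4 to 6. The tables were normalized separately, so each treatment was compared only with the controls of its own table, and treatment and experiment cannot be told apart.

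Immune checkpoint ligands are molecules on, or released by, a cell that dampen the immune cells that meet it. CD274 (PD-L1) and PDCD1LG2 (PD-L2) bind PD-1 on T cells, and CD276 (B7-H3) is a relative of both. CD47 binds SIRPα on macrophages and holds back phagocytosis. PVR (CD155) and NECTIN2 (CD112) are adhesion molecules shared by the inhibitory receptor TIGIT and the activating receptor CD226. NT5E (CD73) is a surface enzyme that makes adenosine from AMP, and LGALS9 (galectin-9) is a secreted lectin for which TIM-3 is among the described receptors. Tumour cells of many origins carry several of these molecules, and CD274 is a well known target of interferon signalling.

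Promoter sequences were available in the RefSeq table (GRCh38.p14) for 7 of the 8 genes, PDCD1LG2 being without an entry, and CD276 had 2 entries. The 250 bases before the start of each were searched on both strands for the interferon-stimulated response element (ISRE) core (GAAA and GAAA with any 2 bases between them), the gamma-activated site (GAS) TTCNNNGAA, the AP-1 motif TGANTCA and the NF-kB motif. The promoters of 4 genes are shown because their transcripts followed 4 different courses: CD274 was higher with both agents, LGALS9 moved in opposite directions, PVR was higher with PMA and NECTIN2 with ConA. Capitals mark the motif matches, and each sequence runs 5′ to 3′ on the strand of its gene. They lie at chr9:5450292-5450541 (plus strand), chr17:27630938-27631187 (plus strand), chr19:44643660-44643909 (plus strand) and chr19:44846047-44846296 (plus strand), in the order given.
CD274: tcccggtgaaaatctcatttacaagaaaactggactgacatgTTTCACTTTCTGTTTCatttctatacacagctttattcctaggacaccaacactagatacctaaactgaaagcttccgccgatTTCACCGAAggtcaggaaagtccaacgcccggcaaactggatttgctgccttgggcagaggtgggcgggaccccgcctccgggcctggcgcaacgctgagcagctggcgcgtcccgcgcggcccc
LGALS9: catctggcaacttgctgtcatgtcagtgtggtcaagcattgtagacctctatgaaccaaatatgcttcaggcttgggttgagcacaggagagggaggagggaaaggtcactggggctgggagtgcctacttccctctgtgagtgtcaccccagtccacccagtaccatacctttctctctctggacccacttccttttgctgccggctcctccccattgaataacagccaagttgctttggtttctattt
PVR: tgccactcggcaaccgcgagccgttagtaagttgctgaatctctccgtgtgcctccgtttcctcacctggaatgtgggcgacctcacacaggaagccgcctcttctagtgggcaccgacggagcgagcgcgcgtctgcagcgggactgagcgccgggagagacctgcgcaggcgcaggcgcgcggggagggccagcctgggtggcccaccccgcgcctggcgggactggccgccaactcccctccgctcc
NECTIN2: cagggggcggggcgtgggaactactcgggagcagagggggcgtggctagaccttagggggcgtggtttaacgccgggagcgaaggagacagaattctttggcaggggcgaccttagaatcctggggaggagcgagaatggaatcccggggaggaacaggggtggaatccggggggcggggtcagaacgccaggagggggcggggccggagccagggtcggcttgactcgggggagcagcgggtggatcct
Counted from the first base shown, the CD274 sequence held 2 overlapping matches to the ISRE core on the opposite strand, at bases 43 to 52 and 49 to 58, and a GAS match at bases 126 to 134. The last bases of these matches lie 199, 193 and 117 bases from the start site. Windows of 250 bases with an ISRE core made up 3.02% of the 35116 promoters in the table, those with a GAS 6.57%, those with an AP-1 motif 6.57% and those with an NF-kB motif 9.96%. The LGALS9, PVR and NECTIN2 windows held no match to these letters, nor did those of CD47 and NT5E. The second CD276 entry held 1 NF-kB match, at bases 183 to 192. A match is a run of letters and not a measured binding site. CD274 and PDCD1LG2 are neighbours, with 0 protein-coding genes between them in that annotation, and PVR and NECTIN2 have 5 between them.

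The estimated depth was 33637952 to 45595027 reads per library. Every library pair of a group differed by more than sampling noise. The mean squared difference was 3.53 to 16.4 times the variance that counting alone gives. All 10 mesenchymal markers of the HT1080 list were listed in both tables. SPARC (log2 fold change -1.53) and MMP2 (-1.28) were called lower with PMA, and S100A4 (-1.05) with ConA. All 11 T and NK cell markers were also listed in the PMA table, where their summed level was 1183 to 1333 normalized counts in the controls and 1762 to 2329 in the PMA libraries, and GNLY was called higher with PMA. Of the 11, only 2 were listed in the ConA table, and their summed level was 46.9 to 59.1 in all 6 libraries. The summed level of the myeloid list was 7748 to 8113 with PMA (controls 5493.5 to 5964) and 17837 to 21091 with ConA (controls 6203 to 6624). CD68 made up most of each sum, at 7270 ± 88.1 with PMA against 5181 ± 241 in those controls. With ConA, CD68 rose from 5925 ± 203 to 18897 ± 1649 normalized counts (log2 fold change 1.67) and CLEC7A from 23.1 ± 4.42 to 291.5 ± 28.9 (3.61), and with PMA, CD163 rose from 3.63 ± 0.964 to 28.2 ± 3.59 (2.67). ITGAM, named after its values were seen, had 3.69 ± 3.04 in the ConA controls and 29.4 ± 7.78 with ConA and was not called (2.88, adjusted p = 1.34e-04). CSF1R and LYZ, also named after their values were seen, were not called with ConA. CSF1R went from 357 ± 22 to 260 ± 3.22 (log2 fold change -0.46) and LYZ from 93.3 ± 15.5 to 111.5 ± 28.8 (0.24). With PMA, CSF1R (0.12), ITGAM (0.09) and FCGR3A (1.31) were not called, and LYZ and CLEC7A were too low to be tested. LYZ had 2.77 normalized counts with PMA against 10.8 ± 4.96 in those controls, and CLEC7A 2.91 ± 0.546 against 8.15 ± 2.35. These values too were picked after they were seen. The leukocyte markers PTPRC, CD14 and TYROBP of that list were not listed in the ConA table, and CD14 and TYROBP not in the PMA table. PTPRC was listed in the PMA table, at 180 ± 6.15 normalized counts in the controls and 243 ± 80.4 with PMA (0.38, not called). Of the 6 epithelial markers, 3 were tested with PMA, of which KRT8 was lower, and 5 with ConA, of which none was called. The part of other cell types in the results below was not tested.

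**Figure D1:**
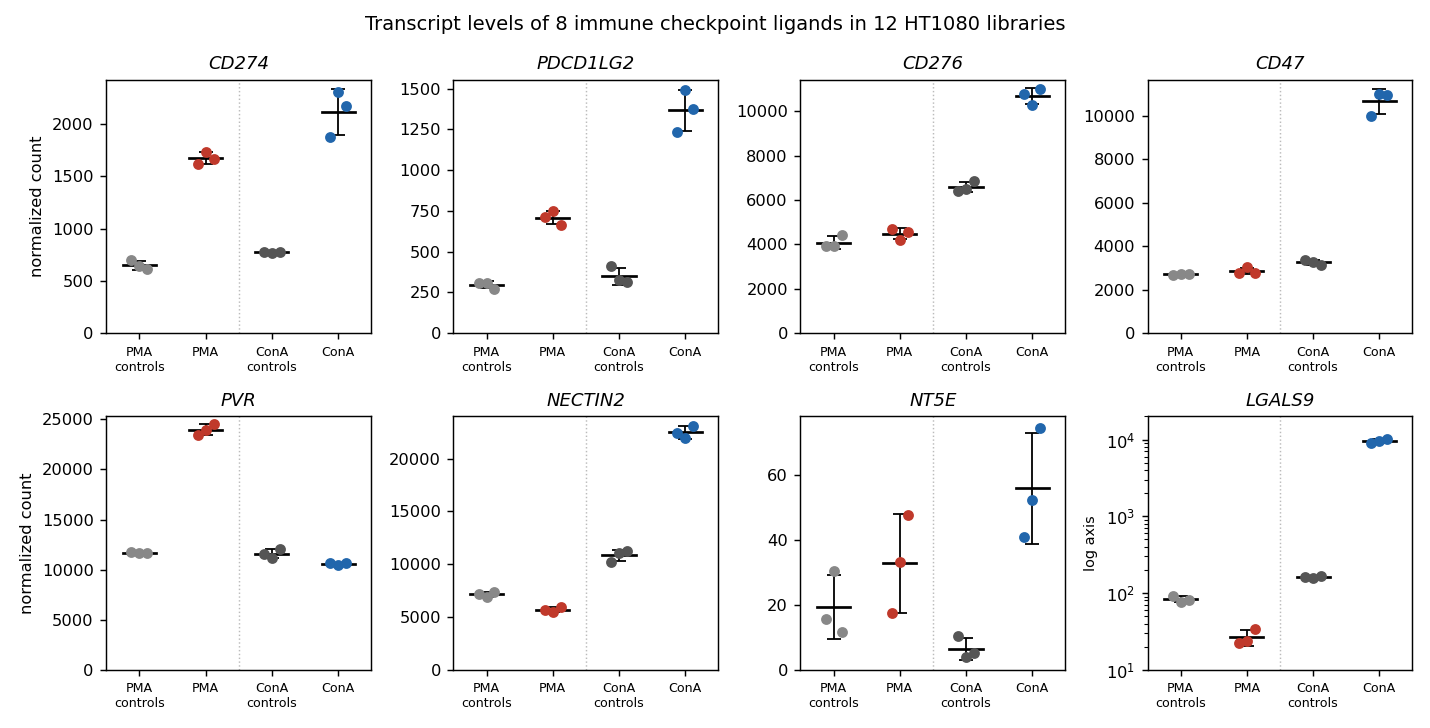
Normalized counts of each checkpoint ligand (y axis, from 0, except for LGALS9, which has a log axis) in the 12 libraries, by group on the x axis. Points are libraries, bars the mean and whiskers the SD of 3 libraries, and the dotted line parts the separately normalized tables. CD274 and PDCD1LG2 sit above their controls with both agents, PVR does so with PMA but not with ConA, and LGALS9 lies near 9588 in ConA cells against 162 in their controls.

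Which of these ligands changed with each agent was asked with limma on log2(normalized count + 1), where a call needed a log2 fold change of at least 1 in either direction and an adjusted p of at most 0.0001. Fold changes are on that scale. With PMA, 3 of the 8 rose (CD274, PDCD1LG2 and PVR), 1 fell (LGALS9) and 4 were not called, against 8.65% of all 15153 genes tested (4.03% higher and 4.61% lower). With ConA, 6 rose (LGALS9, NT5E, PDCD1LG2, CD47, CD274 and NECTIN2), 0 fell and 2 were not called, against 8.71% of 15139 genes (5.83% higher and 2.88% lower). The median log2 fold change of the 8 was 0.44 with PMA, where that of all genes was 0.003, and 1.58 with ConA, where that of all genes was -0.002. With PMA the 3 treated libraries were clear of the 3 controls for 6 of the 8 genes (4 above, 2 below), as for 67.9% of all genes tested (34.8% above, 33.1% below). With ConA this held for all 8 (7 above, 1 below) and for 69.3% of all genes (34.9% above, 34.4% below). In bulk RNA, fewer expressing cells and less RNA per cell cannot be told apart. Nothing in the labels says that libraries of a group came from separate cultures, so the p-values measure the spread between these libraries, which may be technical.

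The ligands of PD-1 rose with both agents. CD274 had 697, 639 and 613 normalized counts in the PMA controls and 1619, 1735 and 1664 in the PMA libraries. In the ConA controls it had 777, 768 and 774, and in the ConA libraries 1874, 2304 and 2174. Every treated library lay above every control of its table, with no overlap. The log2 fold change was 1.36 (SE 0.059, adjusted p = 3.98e-09) with PMA and 1.45 (SE 0.0743, adjusted p = 7.99e-10) with ConA. The difference between these changes was -0.08 on the log2 scale, with a 95% interval of -0.29 to 0.13 that leaves room for either sign (limma, adjusted p = 0.489).

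PDCD1LG2, the neighbour of CD274, had 306, 309 and 272 normalized counts in the PMA controls and 714, 747 and 665 with PMA. Its ConA controls held 409.5, 324 and 314 and its ConA libraries 1236, 1489 and 1375. Neither pair of groups overlapped. The log2 fold change was 1.26 (SE 0.0766, adjusted p = 7.34e-08) with PMA and 1.97 (SE 0.102, adjusted p = 8.53e-10) with ConA. The PMA change minus the ConA change was -0.71 log2 units (95% interval -1.005 to -0.42, adjusted p = 2.49e-04), which did not pass the thresholds for a call. Within a library, the ratio of CD274 to PDCD1LG2 counts was 2.37 ± 0.124 (SD, n = 3) with PMA, where the controls had 2.20 ± 0.116, and 1.55 ± 0.0320 with ConA, where the controls had 2.25 ± 0.306. The ConA libraries, at 1.52 to 1.58, lay below all of their controls, at 1.90 to 2.47, while the PMA libraries overlapped theirs. An exact 2-sided permutation test of the log2 ratio gave p = 0.1 for ConA, the smallest that 3 against 3 libraries allow, and p = 0.2 for PMA.

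CD276, a B7 family relative, was not called with either agent. It had 3901, 3919 and 4419 normalized counts in the PMA controls and 4683, 4182 and 4573 with PMA, which overlapped (log2 fold change 0.14, 95% interval 0.01 to 0.26, adjusted p = 0.0606). In the ConA experiment the controls held 6391, 6494 and 6860.1 and the ConA libraries 10777, 10271.5 and 10996. These did not overlap, and the adjusted p was 4.17e-08, yet the log2 fold change of 0.70 (95% interval 0.59 to 0.81) was short of the fold a call needed. The PMA change minus the ConA change was -0.56 log2 units (95% interval -0.73 to -0.40, adjusted p = 9.6e-06), also short of that fold.

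CD47, the ligand of the macrophage receptor SIRPα, rose with ConA. It had 3386, 3256 and 3149 normalized counts in the ConA controls and 10017, 11029.5 and 10966 in the ConA libraries, a log2 fold change of 1.71 (SE 0.0555, adjusted p = 4.45e-12). With PMA it had 2758, 3027 and 2784, against 2664, 2742 and 2742 in the controls. The PMA libraries all lay above their controls, but by little (log2 fold change 0.07, 95% interval -0.03 to 0.17, adjusted p = 0.19), and the sign turned to -0.05 under quantile normalization and under scaling to equal library sums. The PMA change minus the ConA change was -1.64 log2 units (SE 0.0717, adjusted p = 2.61e-12).

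**Figure D2:**
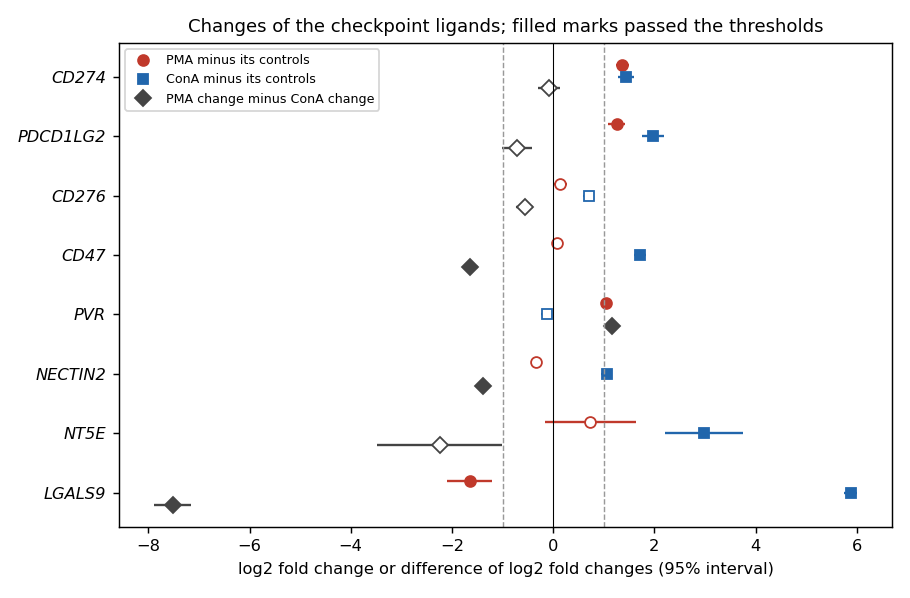
Log2 fold change of each checkpoint ligand with PMA (circles) and with ConA (squares), and the difference between them (diamonds), on the x axis, with 95% intervals as lines where these are wider than the mark. Filled marks passed both thresholds and dashed lines stand at a log2 value of 1 in each direction. The filled diamonds belong to CD47, PVR, NECTIN2 and LGALS9.

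PVR and NECTIN2, which share TIGIT and CD226 as receptors, changed with different agents. PVR had 11775, 11637 and 11669 normalized counts in the PMA controls and 23467, 23915 and 24587 with PMA. All 3 PMA libraries stood well above the controls (log2 fold change 1.04, SE 0.0356, adjusted p = 5.95e-10). This is close to the fold a call needs, and it was 0.85 under quantile normalization and 0.92 with equal library sums, where PVR was no longer called. With ConA, PVR had 10639.6, 10419.9 and 10615 normalized counts against 11539.5, 11118 and 12019.8 in the controls. The ConA libraries lay below all controls, with a log2 fold change of -0.13 (95% interval -0.24 to -0.02, adjusted p = 0.0345) that was not called.

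NECTIN2 had 22417, 21939 and 23114 normalized counts with ConA and 10242.5, 11071 and 11207.5 in the ConA controls. All ConA libraries were above the controls (log2 fold change 1.05, SE 0.0533, adjusted p = 6.87e-10), and the value was 0.99 after median centring, just short of a call. With PMA it had 5669.8, 5432 and 5941 against 7213, 6885 and 7378 in the controls. The PMA libraries lay below all controls with an adjusted p of 4.98e-05, and the log2 fold change of -0.33 (95% interval -0.43 to -0.24) was too small for a call. The changes of both genes differed between the agents: the PMA change minus the ConA change was 1.17 log2 units for PVR (SE 0.0579, adjusted p = 1.51e-11) and -1.39 for NECTIN2 (SE 0.0683, adjusted p = 1.34e-11).

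Within a library, the ratio of PVR to NECTIN2 counts was 1.63, 1.69 and 1.58 in the PMA controls and 4.14, 4.40 and 4.14 with PMA. In the ConA controls it was 1.13, 1.00 and 1.07, and with ConA 0.475, 0.475 and 0.459. The ratio thus lay higher in every PMA library and lower in every ConA library than in any control of its table, with an exact 2-sided permutation p = 0.1 in each, the smallest possible. These ratios need no normalization between libraries.

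**Figure D3:**
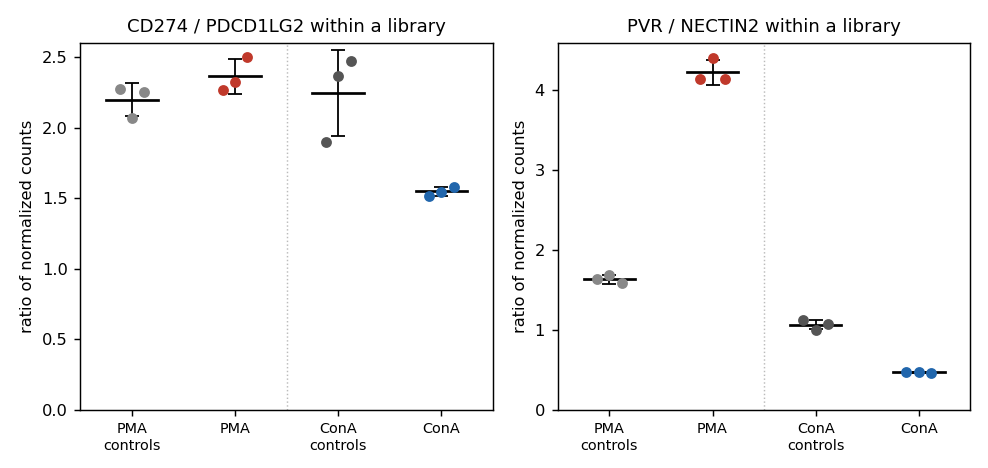
Ratio of normalized counts of CD274 to PDCD1LG2 and of PVR to NECTIN2 within each library (y axes, from 0), by group on the x axis. Points are libraries, bars means and whiskers the SD of 3 libraries. The PVR to NECTIN2 ratio was 4.23 ± 0.152 with PMA and 0.470 ± 0.00895 with ConA.

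NT5E, the ectoenzyme that produces adenosine, had the lowest mean per kilobase of the 8 in every group. It had 10.4, 4.00 and 5.01 normalized counts in the ConA controls, about 10, 4 and 5 estimated reads, and 41.1, 52.3 and 74.6 in the ConA libraries. These did not overlap (log2 fold change 2.98, 95% interval 2.21 to 3.75, adjusted p = 5.24e-06). With controls this low the fold depends on the pseudocount, at 3.17 with 0.1 and 1.99 with 10 in place of 1, and it was called with each. Without ConA replicate 3 the value was 2.76 and the adjusted p 1.12e-04, so that the call was lost, and without a variance trend the adjusted p was 8.22e-04. With PMA it had 17.4, 33.3 and 47.9 against 15.7, 30.4 and 11.7 in the controls, which overlapped (log2 fold change 0.74, 95% interval -0.17 to 1.64, adjusted p = 0.139). That interval holds both 0 and 1.36, the change of CD274 with PMA, and the spread between libraries was wide: the value was 0.42 without PMA replicate 3 and 0.46 without PMA_control replicate 3, and 1.12 without PMA replicate 1 (adjusted p = 0.0294) and 1.11 without PMA_control replicate 2 (adjusted p = 0.0393), none of them called. The difference between the agents, -2.24 log2 units (95% interval -3.48 to -1.01), had an adjusted p of 0.00306 and was not called, and it was -1.45 with a pseudocount of 10.

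LGALS9, the lectin galectin-9, had the largest fold change of the 8 with ConA, and it was the only one of them called lower with PMA. It had 163, 158 and 166 normalized counts in the ConA controls and 9109.7, 9569 and 10084.5 in the ConA libraries (log2 fold change 5.87, SE 0.0625, adjusted p = 3.55e-17). With PMA it had 22.1, 23.8 and 33.5, against 92.2, 76.9 and 82.1 in the controls. Neither pair of groups overlapped. The log2 fold change with PMA was -1.65 (SE 0.201, adjusted p = 2.69e-05), and it was less firmly called than the others: the adjusted p was 1.17e-04 under quantile normalization and 5.4e-04 without a variance trend, and the call was lost without PMA_control replicate 1 (-1.57, adjusted p = 4.02e-04), PMA_control replicate 2 (-1.70, 1.57e-04), PMA replicate 1 (-1.53, 1.2e-04) or PMA replicate 2 (-1.58, 2.14e-04). The PMA change minus the ConA change was -7.52 log2 units (SE 0.175, adjusted p = 3.57e-16).

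LGALS9 has near-identical copies, LGALS9B and LGALS9C, between which reads can be split, so its values carry that uncertainty. Neither copy was listed in the PMA table. In the ConA libraries LGALS9B had 27.8, 33.9 and 20.6 normalized counts, against about 1 estimated read in each control, at least 9.01-fold higher against a floor of 3 estimated reads per library. LGALS9C had 19.3, 5.84 and 7.22 with ConA, and 1.04, 0 and 0 in the controls. The copies together took 0.276% to 1.27% of the counts of the 3 genes in any library of the ConA experiment. The log2 fold of the 3 genes summed was 5.88 with ConA. For the PMA experiment, where the copies were not listed, no such share can be given.

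Over the 8 genes, the difference between the agents (PMA less ConA) was called for 4, 1 higher (PVR) and 3 lower (CD47, NECTIN2 and LGALS9), against 10.6% of 15030 genes (3.67% higher and 6.89% lower). The median difference was -1.05 log2 units for the 8 and -0.01 for all genes. Each term of the difference is a contrast within a table, so that a factor common to a table drops out.

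**Figure D4:**
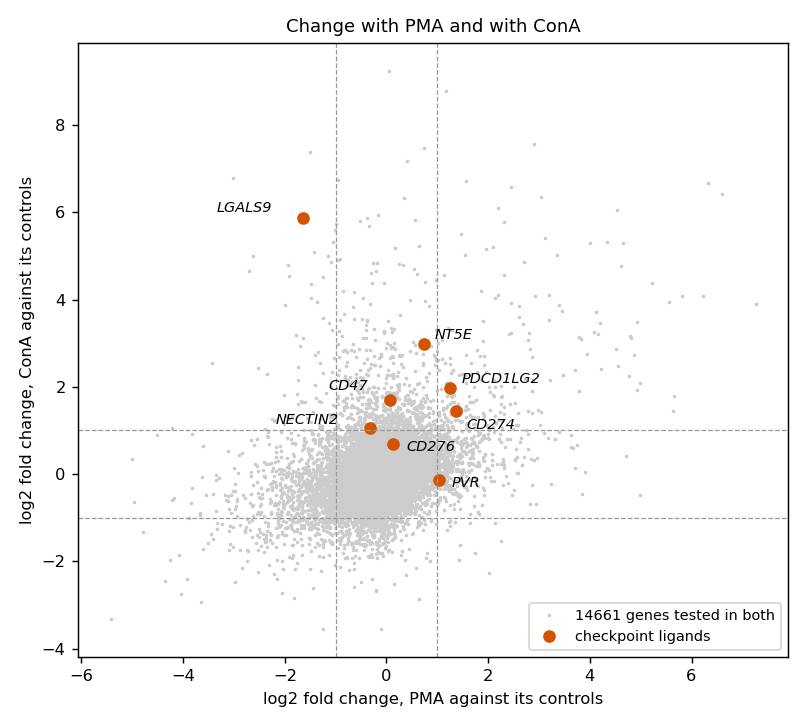
Log2 fold change with PMA (x axis) and with ConA (y axis) of the 14661 genes tested in both tables (grey) and of the 8 checkpoint ligands (orange, named), with dashed lines at a log2 value of 1 in each direction. CD274 and PDCD1LG2 lie past the fold threshold on both axes, PVR on the PMA axis, CD47, NECTIN2 and NT5E on the ConA axis, and LGALS9 on both with opposite signs.

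Levels were set against each other only per kilobase of annotated exon, which rests on the exon union of each gene and not on the isoform expressed. In the PMA controls the order, in normalized counts per kilobase, was PVR (3323), NECTIN2 (2024.5), CD276 (916), CD47 (514), CD274 (176), PDCD1LG2 (125), LGALS9 (26.9) and NT5E (4.54), and the replicate ranges of neighbours in this order were apart. With PMA the order was the same, with PVR at 6817, CD274 at 454 and PDCD1LG2 at 299.6, and only LGALS9 (7.08 to 10.8) and NT5E (4.10 to 11.3) overlapped. The ConA controls also had the same order, in which PVR (3159.5 to 3416) and NECTIN2 (2897 to 3170) overlapped. In the ConA libraries NECTIN2 came first (6360.3 ± 167, SD, n = 3), ahead of LGALS9 (3079 ± 157) and PVR (3000.3 ± 34.2), whose ranges overlapped, then CD276 (2399) and CD47 (2019.8), then PDCD1LG2 (578 ± 53.7) and CD274 (575 ± 59.7), which overlapped, and NT5E (13.2). LGALS9 was seventh of the 8 in the other groups. Across the separately normalized tables these are orders within a table only.

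The genes whose pattern over the 12 libraries was closest to each ligand were found from the log2 values centred on the controls of their own table, by the root mean square difference among 14661 genes. This is a description, and the libraries of a group share their treatment. For CD274 these were LACC1 (0.065 log2 units), PTX3 (0.087) and IRAK2 (0.124), and for PDCD1LG2 they were CFLAR (0.126), VEGFC (0.142) and SQOR (0.145). For CD276 they were GEMIN4 (0.041), NDOR1 (0.052) and DENND3 (0.052). For CD47 they were CMTR1 (0.070), TAP2 (0.079), a subunit of the peptide transporter of antigen presentation, and PHF11 (0.089). PVR was closest to FRMD4A (0.045), HMOX1 (0.050), the haem-degrading enzyme, and RASA3 (0.054), and NECTIN2 to CDC42EP4 (0.053), ACP2 (0.068) and IGSF8 (0.076). The low and variable NT5E had no near match, with KYNU (0.389), IL12RB1 (0.441) and C6orf58 (0.465) nearest. LGALS9 had no near match either. The interferon-induced genes BST2 (0.376), HERC5 (0.383) and IFIT2 (0.434) were nearest to it. They changed by -1.0, -1.01 and -1.06 with PMA and by 5.74, 5.59 and 5.33 with ConA on the log2 scale.

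The genes that act with the 8 ligands were described by lists written from general knowledge, as counts and medians. For every list below, the share called over all genes tested was 8.65% with PMA (4.03% higher and 4.61% lower). With ConA it was 8.71% (5.83% higher and 2.88% lower). In lists this short, few or no calls lie near these shares. Of the receptors of the ligands, 10 of 13 were tested with PMA and none was called (median 0.27), and 8 with ConA, where HAVCR2, which encodes TIM-3, rose from 8.74 ± 3.10 to 38.0 ± 3.16 normalized counts (log2 fold change 2.06) and CD96 fell from 46.0 ± 4.59 to 15.4 ± 2.17 (log2 fold change -1.52), with a list median of -0.74. PDCD1, which encodes PD-1, was listed in neither table, and TIGIT and CD226 were listed in the PMA table only, where the T and NK cell markers were also listed. These 3 and SIRPA were named after their values were seen. SIRPA, the receptor of CD47, had 955 ± 55.2 normalized counts in the PMA controls and 1544 ± 55.5 with PMA (log2 fold change 0.69), and had 1302 ± 65.3 with ConA against 913 ± 31.1 in those controls (0.51), and it was not called with either agent.

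Other inhibitory ligands of the B7, butyrophilin and HLA kind were not called with PMA (0 of 12, median -0.44) and included 7 of 13 called higher with ConA (median 1.15). The largest were CEACAM1, an adhesion molecule described as a ligand of TIM-3, from 28.5 ± 14.3 to 1482 ± 150 normalized counts (log2 fold change 5.80), HLA-G, from 3.38 ± 2.51 to 30.4 ± 1.79 (3.02), and HLA-E, the ligand of NKG2A, from 7454 ± 369 to 38353 ± 1724 (2.36). HLA genes and butyrophilins have close paralogs with which reads can be shared. Of the costimulatory ligands, 9 were tested with PMA, of which TNFSF15 (log2 fold change 3.10) and TNFSF14 (2.82) rose and TNFSF9 (-1.06) and 1 other fell (median 0.05). With ConA 8 were tested, of which CD40 (2.87) and TNFSF14 (2.86) rose and 0 fell (median 0.64). Both rose from low ConA controls, CD40 from 15.85 ± 9 to 113 ± 24.2 normalized counts and TNFSF14 from 4.06 ± 2.01 to 34.3 ± 7.06. The NKG2D ligands, stress-induced activators of NK cells, had 0 of 6 called with PMA (median -0.64). With ConA 2 of 7 were called higher, MICB (2.54) and RAET1E (1.59), with a median of 0.36. MICB was also low in the ConA controls, at 8.92 ± 6.07 normalized counts against 50.5 ± 8.48 with ConA.

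Among partners of the adhesion, lectin and enzyme pathways, the nectin list had 2 of 7 called lower with PMA, CADM1 from 4681 ± 24.1 to 1556 ± 28.1 normalized counts (log2 fold change -1.59) and NECTIN1 (-1.01), with a median of -0.82, and 0 of 7 called with ConA (median -0.16). The list of other galectins, which also held the galectin-binding protein LGALS3BP, had 1 of 4 called higher with PMA (median 0), LGALS8 (1.06). With ConA 3 of 6 were called higher (median 0.58). These were LGALS8 (1.07), LGALS3BP (1.70) and the copy LGALS9B given above, which may hold reads of LGALS9. The nucleotide and adenosine pathway, in which NT5E acts, had SLC29A2 (-2.62) and ENPP1 (-1.25) lower and ADK (1.01) higher with PMA out of 11 (median -0.12). With ConA, DPP4 (2.96) was higher and ADA (-1.08), which breaks down adenosine, lower out of 11 (median -0.26). Low levels lie behind the folds of DPP4, from 5.71 ± 2.46 to 49.1 ± 8.87 normalized counts, and of SLC29A2, from 42.7 ± 7.46 to 6.36 ± 2.76. Partners of CD47 had 1 of 10 called higher and 3 lower with PMA (median -0.57), of which THBS1 (-1.76), the thrombospondin that binds CD47, and LRP1 (-1.20) were lower and ITGB3 (1.33) higher, and 0 of 10 called with ConA (median -0.27).

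The list of genes known to regulate CD274 transcription also held receptors and kinases, such as EGFR and JAK1. It had 4 of 17 called higher with PMA (median 0.34) and 5 of 17 with ConA (median 0.48), and none lower with either. With PMA the largest were FOSL1, an AP-1 subunit, from 10220.1 ± 336 to 35844 ± 1701.5 normalized counts (log2 fold change 1.81), EGFR (1.37) and NFKB1 (1.28). Those called higher with ConA included STAT2 (1.98), a subunit of the interferon-activated complex ISGF3, and IRF1 (1.22). NFKB1 was called higher with ConA as well (1.09). It is named for ConA because it was the only gene of this list called with both agents. Regulators of PD-L1 protein stability had 0 of 13 called with PMA (median -0.01) and 1 of 14 with ConA, CMTM4, which was lower (-1.26), with a median of -0.24. Protein was not measured in these libraries.

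**Figure D5:**
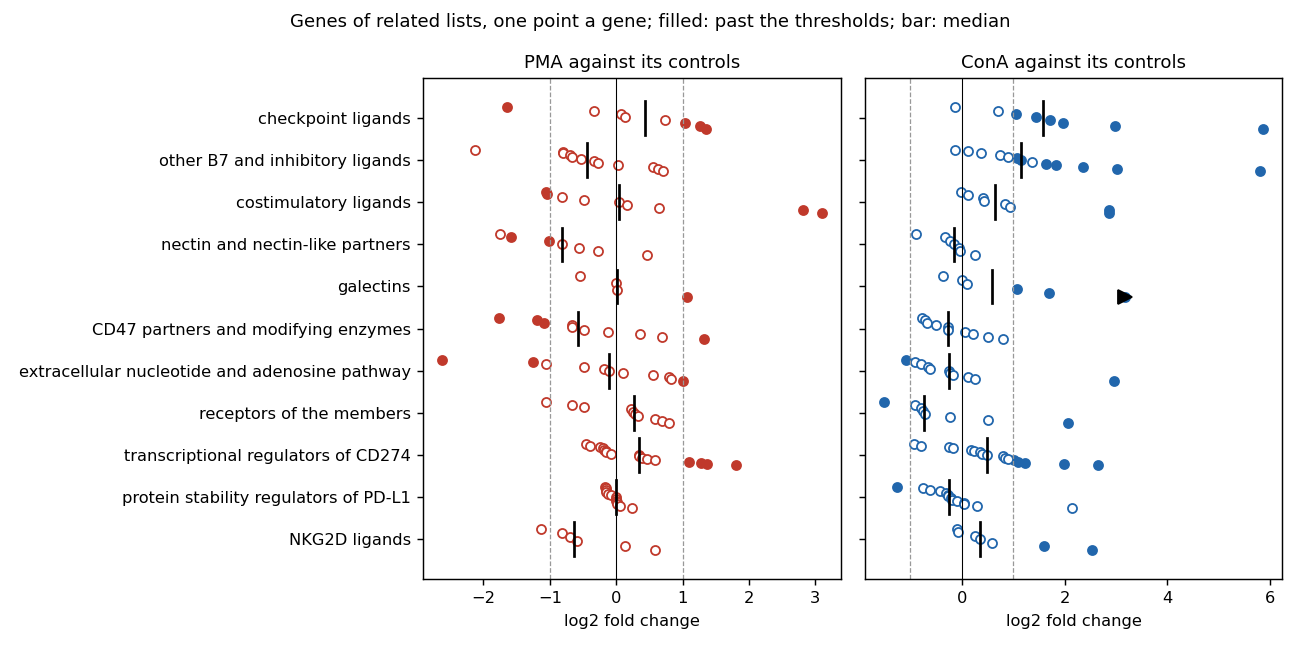
Log2 fold change (x axis) of each tested gene of the checkpoint ligand list and 10 related lists (y axis), with PMA on the left and ConA on the right. Filled points passed both thresholds, vertical bars are list medians, dashed lines stand at a log2 value of 1 in each direction, and triangles are folds against the 3-read floor. The median of the checkpoint ligands was 0.44 with PMA and 1.58 with ConA.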

How the data were processed

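Polyadenylated RNA of 12 HT1080 libraries (4 groups of 3) was sequenced. The deposited signal values are the authors' normalized counts per gene symbol, estimated counts divided by a factor per library, made apart for each table. The submitters' processing notes name Partek, Bowtie2, STAR and DESeq2 and the builds hg19 and mm10, with no versions; the annotation is not given in the sources used here. Whole reads could not be recovered: 80.2% to 82.6% of low values (5 to 60) came within 0.02 of whole numbers under the best factor, so count tests were not run. Estimated depths follow from those factors, and precision is set by the spread of 3 libraries. Every listed gene had at least 10 estimated reads in its highest library.

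Genes with a mean of at least 10 were tested with limma 3.58.1 in R 4.3.3 (variance trend) on log2(value + 1), with Benjamini-Hochberg adjustment over all genes tested. Differences between agents were fitted over the 12 libraries with 4 group means. The fits were tested on simulated data. Alternatives were pseudocounts of 0.1 and 10, other filters, scalings, variance model, joint fit, threshold, replicate block and leaving out libraries. Lengths came from GENCODE exons. Named were all 8 ligands, up to 3 called genes per list and agent with the largest changes and the 3 nearest patterns. The ligands and lists were chosen with earlier results of these data known. Some genes of the lists are not reported here.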

Additional observations from a re-analysis of the deposited data

Results flagged for a closer look

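The change of 4 checkpoint ligands differed between the agents by the test of the difference itself (limma over 12 libraries, absolute log2 difference of at least 1 and adjusted p of at most 0.0001), which 10.6% of all genes tested also passed. The PMA change minus the ConA change was -1.637 log2 units for CD47 (0.072 with PMA, 1.708 with ConA), 1.166 for PVR (1.036 and -0.13), -1.387 for NECTIN2 (-0.334 and 1.054) and -7.52 for LGALS9 (-1.646 and 5.875). For LGALS9 every PMA library was below and every ConA library above its controls, for PVR and NECTIN2 the libraries were also apart in opposite directions, and for CD47 they lay above the controls with both agents. PVR fell short of the call under quantile normalization (0.936) and with equal library sums (0.978). Each agent was used in its own experiment, so agent and experiment cannot be told apart.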

How the results depend on the processing

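CD274, PDCD1LG2, and CD47 and LGALS9 with ConA kept their calls under every alternative run. CD47 with PMA, not called, turned to -0.054 under quantile normalization and -0.049 with equal library sums. Equal library sums moved the median of all genes to -0.118 with PMA and to -0.198 for the difference between agents. Relative to these medians CD47 with PMA was at 0.069, PVR with PMA at 1.033 and the PVR difference at 1.176. That scaling shifts all genes of a library alike, so these values return to the main ones by construction and show no robustness. Under quantile normalization the same values relative to the median were -0.041, 0.864 and 0.89. Under quantile normalization 2 ligands were called with PMA in place of 4. Without a variance trend, 867 genes were called with PMA in place of 1310 and 662 with ConA in place of 1318, and the cause was not tested. Equal library sums lowered the higher share of PMA calls from 46.6% to 36.5% and that of the difference from 34.7% to 19.2%. With each library left out in turn, 1107 to 1252 genes and 3 to 4 ligands were called with PMA, 1123 to 1415 genes and 5 to 6 ligands with ConA, and 1427 to 1594 genes and 4 ligands for the difference. NT5E was not tested at a mean of at least 50, and its difference was called when adjusted p-values up to 0.05 were allowed. Of the values of single ligands under alternatives, 125 with PMA, 124 with ConA and 164 for the difference kept their direction and call, 8, 3 and 2 lost a call, and 1, for the difference, gained one.

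With the replicate number as a block, 1264 genes and 4 ligands were called with PMA, and no call of a ligand changed. Same-numbered PMA and control libraries correlated at -0.064, 0.096 and 0.096, and control 1 correlated best with PMA replicate 2 (0.106). With 3 libraries in a group, these values cannot tell whether same-numbered libraries were handled together. No paired analysis was possible for ConA because its libraries and controls carry different numbers.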
